A study of Homo sapiens with 23 samples.

Results

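The difference between LNCaP and LAPC4 prostate cancer cells in their response to ONECUT2 (OC2) was measured by RNA sequencing in 10 of the 23 libraries of the series. These 10 were chosen by line and treatment, as every OC2-overexpressing library of both lines with its control. LNCaP gave 2 libraries with OC2 overexpression (OC2 OE) and 2 labelled Control, from cells in RPMI-1640 medium with 10% serum. LAPC4 gave 3 libraries with OC2 OE and 3 with vector (Vec), from cells in IMDM with 10% serum and 1 nM of the synthetic androgen R1881. No other allele or agent is given for these groups, and the labels do not say whether a line is 1 clone or whether replicates are separate cultures, so p-values measure the spread between these libraries. A further pair of LNCaP libraries, carrying a control hairpin (shCon), served as a different LNCaP reference.

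OC2 is a transcription factor of the ONECUT family, which binds DNA through a CUT domain and a homeodomain and is known from liver, pancreas and nervous system development. In prostate cancer it is studied as a factor of tumours that lose androgen dependence and take on neural or other non-luminal traits. LNCaP, from a lymph node metastasis, and LAPC4, from a xenograft, are both androgen-sensitive adenocarcinoma lines with a luminal character.

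The 4 LNCaP libraries held 21686338 to 23272088 counts and the 6 LAPC4 libraries 28586064 to 30465978. The luminal markers KRT8, KRT18, KLK3 and HOXB13 were present in every library, the lowest being KLK3 in LAPC4 with OC2, at 25.1, 19.7 and 43.3 CPM (counts scaled to the library size). Among basal markers, KRT5 differed between the Vec libraries, at 97.9, 73.7 and 17.6 CPM. Markers of other cell types that a culture could hold (10 genes, endothelial, blood and stromal) summed to at most 10.7 CPM in any library, with PECAM1 and PTPRC at or near 0. Vec replicate 3 stood apart from its group: per gene, the chi-square between libraries was 32.6 and 18.3 against replicates 1 and 2, and 4.31 between those, while other replicate pairs of the 4 groups lay between 3.29 and 8.86. Since these are bulk samples, fewer cells of a type and less RNA per cell cannot be told apart.

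ONECUT2 itself rose in both lines and further in LAPC4. Its level was 24.1 and 30.4 CPM in LNCaP Control and 321 and 295 with OC2, against 13.1, 16.9 and 16.04 CPM in LAPC4 Vec and 949, 794 and 892 with OC2. No library of one group overlapped the other within a line. The log2 fold change was 3.50 in LNCaP and 5.84 in LAPC4, a difference of 2.34 (SE 0.17, edgeR adjusted p = 1.12e-07). The counts do not separate the introduced copy from the cell's own gene. Each difference between the lines below therefore cannot be told apart from the larger rise of OC2 in LAPC4, from the medium and R1881, or from how the constructs were made.

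Differences below are the log2 fold change in LAPC4 minus that in LNCaP, so a positive value means a stronger rise or weaker fall in LAPC4, and a gene was called at an adjusted p under 0.05. Of 19633 genes tested, 9845 (50.1%) responded in LNCaP, where 5109 rose (26%) and 4736 fell (24.1%), and 10923 (55.6%) in LAPC4, where 5620 rose (28.6%) and 5303 fell (27%). The responses differed between the lines for 9713 genes (49.5%), higher in LAPC4 for 4981 (25.4%) and lower for 4732 (24.1%). For 9044 genes (46.1%) no difference was called. The median difference over all genes was 0.01. As a description across genes that share the same libraries, the responses of the lines correlated with a Pearson r of 0.116 and a Spearman rho of 0.0769 (19633 genes).

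Among the called differences, 2535 genes (12.9% of all tested) responded in opposite directions, of which 1202 (6.12%) rose in LAPC4 and fell in LNCaP and 1333 (6.79%) did the reverse. A further 2936 genes (15%) responded in LAPC4 and were not called in LNCaP, 1608 rising (8.19%) and 1328 falling (6.76%). For LNCaP alone the count was 2763 (14.1%), 1430 rising (7.28%) and 1333 falling (6.79%). Another 1283 genes (6.53%) moved the same way by different amounts, 788 rising (4.01%) and 495 falling (2.52%), and 196 (0.998%) passed in neither line. The last 876 genes (4.46%) had no count in 1 of the lines and were set apart. A missed call in one line is not the same as no response, so 1-line genes are named only where the 95% interval of the other line lay within a 1.5-fold change at a level of 5 CPM or more. That held for 1018 rises (5.19%) and 805 falls (4.1%) in LAPC4, and for 836 rises (4.26%) and 730 falls (3.72%) in LNCaP. The genes nearest the threshold were NECTIN1-DT (adjusted p = 0.04998, inside) and ARHGAP42-AS1 (adjusted p = 0.05004, outside).

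**Figure D1:**
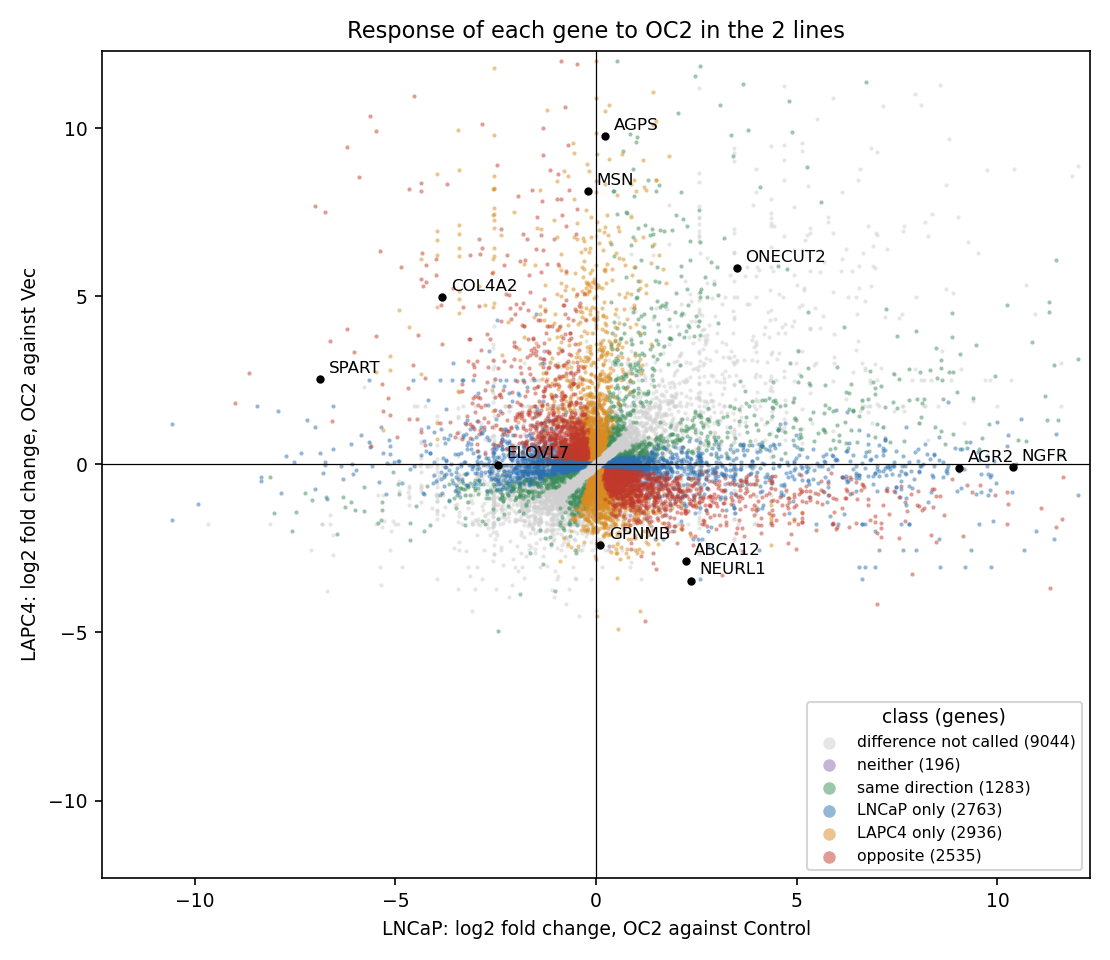
Each point is a tested gene (the 876 without counts in 1 line are left out), with its log2 fold change with OC2 in LNCaP (x axis) and in LAPC4 (y axis), coloured by response class, and values beyond 12 are drawn at 12. The opposite class fills the upper left and lower right, while LAPC4-only and LNCaP-only genes lie along the vertical and horizontal axes.

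Large responses leaned to rises, most of all in LAPC4. Among genes at 5 CPM or more in the higher group, 611 rose and 36 fell by at least 4-fold in LAPC4, and 507 rose and 215 fell in LNCaP. At 16-fold or more the LAPC4 counts were 343 and 1, and the LNCaP counts 269 and 34. In LAPC4, 56 protein-coding genes went from under 0.2 CPM in Vec to over 20 CPM with OC2. AGPS, a peroxisomal enzyme of ether lipid synthesis, and ME1, the cytosolic malic enzyme, were among them. The labels do not say whether the libraries compared within a line came from cells of the same makeup. Neither these genes nor the shifts by chromosome given below separate a response to OC2 from a difference in makeup, which was not tested and bears on every fold change here.

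The LNCaP reference weighed on the result. With shCon in place of Control, the total hardly moved (9653 genes called, 49.2%), but only 6359 of the 9713 differences (65.5%) were called with the same sign and 462 were called with the other sign. Of the opposite class, 1228 genes (6.25% of all tested) were opposite with both references. Of the LAPC4-only class, 72.0% kept a called difference of the same sign, and of the LNCaP-only class 49.0%. Fewer stayed in their class, 41.6% of LAPC4-only and 42.8% of LNCaP-only genes. Genes printed below from the ranked sets kept the sign and call of the difference with both references. Ranked opposite and LNCaP-only genes also kept the sign and call of their LNCaP response. By rule, the libraries of every ranked gene did not overlap between the groups of each responding line. Over all tested genes the groups were apart for 74.5% in LNCaP and 60.6% in LAPC4, so such a gap is common here. LAPC4-only genes were bounded in LNCaP against Control only, and several of them were called in LNCaP against shCon. Values against shCon are given for some genes.

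Responses also varied by position in the genome. In 134 windows of 20 Mb that hold at least 30 genes at 5 CPM or more in both lines, the median log2 fold change ran from -1.10 to 0.80 in LNCaP and from -0.44 to 0.75 in LAPC4. On chromosome 13 between 20 and 40 Mb, 90.9% of 55 genes lay lower with OC2 in LNCaP (median -1.10), and against shCon the median was 0.16. On chromosome 3 between 40 and 60 Mb, the LNCaP median over 153 genes was 0.37 and the LAPC4 median -0.35, while between 120 and 140 Mb the LNCaP median was -0.52 and the LAPC4 median 0.05. Against shCon the LNCaP medians of these chromosome 3 windows were -0.05 and -0.06. In 26 windows the medians of the lines had opposite signs and were both at least 0.1. Where the other genes of a window had a median difference of at least 0.2 in size, called differences under 1 had the sign of that median in 79.3% of 2023 genes, and those of 2 or more in 71.8% of 305. Taking the window's median off each gene kept the sign of 9396 of the 9713 differences (96.7%). What sets these shifts was not tested.

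**Figure D2:**
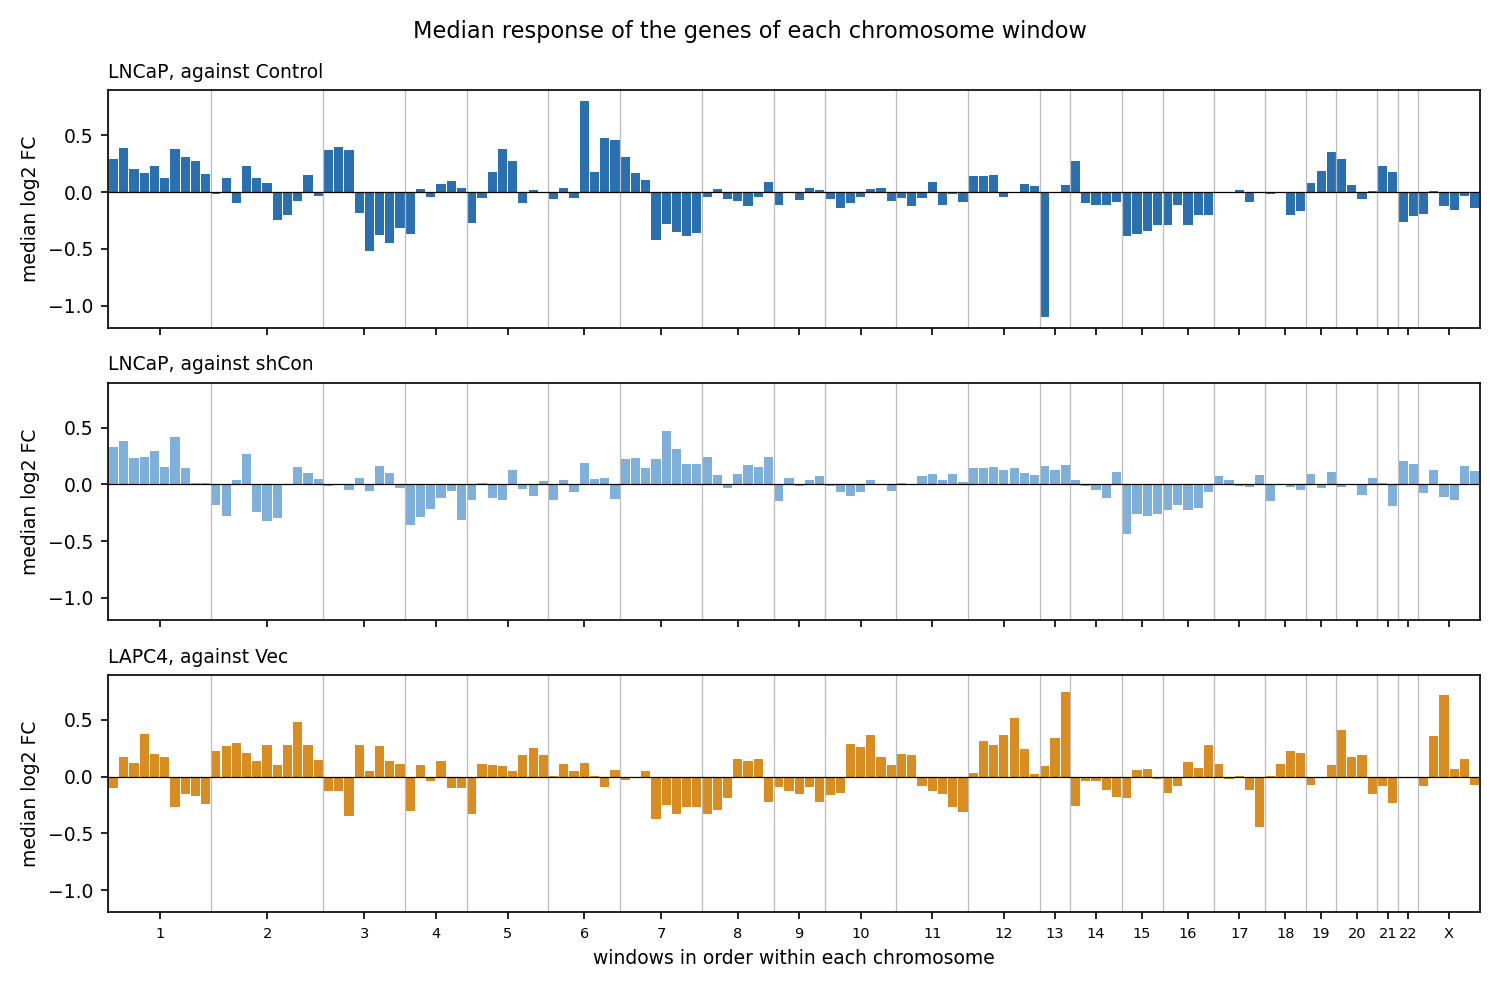
Bars give the median log2 fold change with OC2 over the genes of each 20 Mb window, in order within each chromosome, for LNCaP against Control, LNCaP against shCon and LAPC4 against Vec. The deep LNCaP bar at the start of chromosome 13 (-1.10) stands at 0.16 against shCon. On chromosome 3 the first 3 LNCaP bars against Control lie above 0 and the later ones below.

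The genes with the strongest opposite responses were ranked by the smaller of their fold changes, and 380 genes that rose in LAPC4 and fell in LNCaP were eligible. COL4A2 and SPART led this direction, and NEURL1 and ABCA12 led the reverse. The 250 bases before the RefSeq start of these 4 genes (GRCh38.p14) are printed because the same promoter letters went with opposite responses in the lines. COL4A2 lies at chr13:110307034-110307283 on the plus strand, SPART at chr13:36370181-36370430 on the minus strand, NEURL1 at chr10:103493455-103493704 on the plus strand and ABCA12 at chr2:215138627-215138876 on the minus strand. Each runs 5′ to 3′ on the gene's strand.
COL4A2: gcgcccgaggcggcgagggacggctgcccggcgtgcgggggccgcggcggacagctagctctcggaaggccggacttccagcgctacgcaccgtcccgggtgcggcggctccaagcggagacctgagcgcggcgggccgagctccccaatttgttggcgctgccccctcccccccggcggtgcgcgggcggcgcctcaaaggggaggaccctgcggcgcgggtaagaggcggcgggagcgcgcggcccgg
SPART: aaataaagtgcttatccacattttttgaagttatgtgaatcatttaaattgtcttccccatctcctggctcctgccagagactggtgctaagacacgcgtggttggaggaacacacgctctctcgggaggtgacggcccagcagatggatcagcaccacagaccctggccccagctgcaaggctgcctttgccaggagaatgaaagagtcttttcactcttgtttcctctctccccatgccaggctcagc
NEURL1: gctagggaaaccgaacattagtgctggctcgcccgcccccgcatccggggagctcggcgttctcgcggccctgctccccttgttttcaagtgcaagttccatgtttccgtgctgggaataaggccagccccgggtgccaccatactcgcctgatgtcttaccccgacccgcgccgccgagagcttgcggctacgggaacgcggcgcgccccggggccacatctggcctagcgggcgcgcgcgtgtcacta
ABCA12: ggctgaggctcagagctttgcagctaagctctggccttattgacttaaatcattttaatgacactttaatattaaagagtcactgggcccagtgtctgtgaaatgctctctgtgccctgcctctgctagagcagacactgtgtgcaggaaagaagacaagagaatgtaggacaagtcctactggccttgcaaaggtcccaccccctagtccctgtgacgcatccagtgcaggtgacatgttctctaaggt
GC content was 78.8%, 51.6%, 67.2% and 48.8% in that order. Letters known from ONECUT binding were searched on both strands and would stand in capitals. The first motif, ATCGAT, reads the same on either strand. The second was ATCAAT, which differs from it by a single letter and was counted separately. Neither was found in any of the 4.

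Over all 11968 tested protein-coding genes with a promoter in the table (81% of 14767), 463 (3.87%) held 1 of these motifs in the 250 bases. The share was 3.67% of the promoters of opposite genes that rose in LAPC4 and 3.85% of those that fell. It was 2.75% and 4.03% for LAPC4-only rises and falls, 5.04% and 3.09% for LNCaP-only rises and falls, and 3.89% where no difference was called. LNCaP-only rises held 52 of 1032, which is the highest share of these sets.

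COL4A2, a chain of basement membrane collagen, stood at 17.1 and 13.2 CPM in LNCaP Control and 1.28 and 0.826 with OC2. In LAPC4 it went from 1.61, 2.08 and 1.66 CPM in Vec to 58.01, 54.6 and 55.7 with OC2. The difference was 8.81 (SE 0.28, adjusted p = 8.63e-12), or 5.77 against shCon, where the LNCaP fall was smaller (log2 fold change -0.85). SPART, a protein of lipid droplets and endosomes, fell from 48.1 and 55.1 CPM to 0.321 and 0.551 in LNCaP and rose from 3.84, 4.297 and 4.11 to 22.2, 24.7 and 23.99 in LAPC4. Its difference of 9.40 (SE 0.30, adjusted p = 2.43e-12) became 3.72 against shCon, and it lies in the chromosome 13 window whose genes fell together in LNCaP, with 8.11 remaining once that window's median was taken off. LGALS3BP, a secreted glycoprotein that binds galectins, fell from 21.2 and 18.2 CPM to 4.497 and 3.49 in LNCaP and rose from 2.19, 1.501 and 1.94 to 116, 111 and 119 in LAPC4. This gene kept its size with either reference, at 8.24 and 8.74. The other 5 were the microtubule-associated genes NAV3 and CEP41, the endosomal recycling subunit VPS35L, the GABA-degrading enzyme ABAT and the mitochondrial glutamate cyclase DGLUCY, with differences of 4.47 to 7.32.

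In the reverse direction, 437 genes were eligible. NEURL1, an E3 ubiquitin ligase of the Notch pathway, rose from 1.95 and 1.06 CPM to 8.03 and 7.39 in LNCaP and fell from 33.9, 40.2 and 52.4 to 3.75, 3.38 and 4.37 in LAPC4 (difference -5.82, SE 0.35, adjusted p = 8.9e-09, -9.44 against shCon). ABCA12, a lipid transporter, rose from 3.13 and 2.78 CPM to 12.99 and 14.7 in LNCaP and fell from 20.1, 27.4 and 44.6 to 4.59, 4.05 and 3.98 in LAPC4 (difference -5.10). For both genes the Vec libraries spread widely, and the gap between the groups was required by the ranking rule. SLC7A8, a transporter of neutral amino acids, went from 238 and 206 CPM to 2465 and 2594 in LNCaP and from 60.5, 67.6 and 85.8 to 19.1, 18.1 and 20.6 in LAPC4, a difference of -5.40 (SE 0.17). The phospholipase PLA2G3, the G protein subunit GNB3 and the transcription factor SP8 had differences of -7.44, -6.18 and -6.15. SSX2, a cancer-testis antigen with a near-identical copy, and the adaptor DOK6 were at 0 in both LNCaP Control libraries. They were at least 95.5-fold and 107-fold higher with OC2 there, on a floor of 3 counts per library, and fell 3.66-fold and 3.1-fold in LAPC4.

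Whole programmes were compared next, over 33 gene lists. Each list is given by its counts and by its median difference, beside 0.01 over all genes. The counts stand beside the shares of all genes above (higher in LAPC4 25.4%, lower 24.1%, opposite 12.9%, LAPC4 alone 15%, LNCaP alone 14.1%). The plot of list medians shows the response of each list in both lines.

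**Figure D3:**
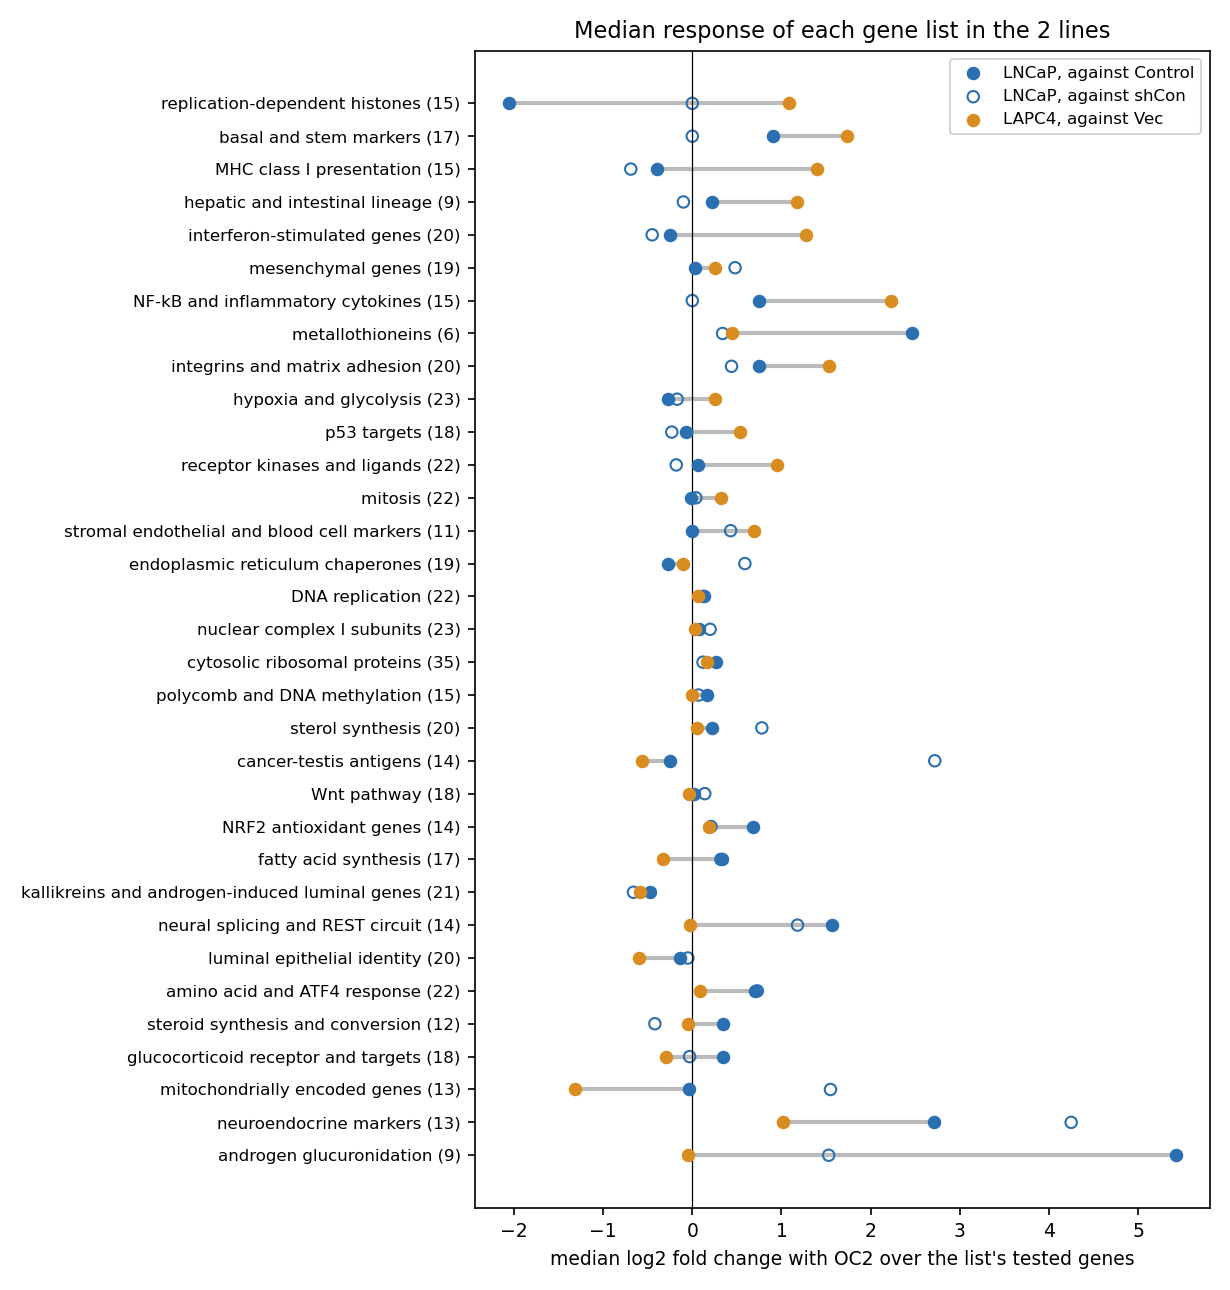
Points give the median log2 fold change with OC2 over the tested genes of each list (number in brackets) in LNCaP against Control (filled blue), in LNCaP against shCon (open blue) and in LAPC4 against Vec (orange). Histones, MHC class I and interferon-stimulated lists lie below 0 in LNCaP and above 0 in LAPC4, and mitochondrially encoded genes lie near 0 in LNCaP and at -1.32 in LAPC4.

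MHC class I presentation, by which cells display peptides to T cells, had the highest share of members higher in LAPC4 among the 33 lists. Of 15 tested members, 14 had a higher difference, 6 of them in the opposite class and 6 responding in LAPC4 alone (median difference 2.04, and 2.75 against shCon). All 14 held with both references, and so did the 6 opposite calls. PSMB8, a catalytic subunit of the immunoproteasome, fell from 3.85 and 3.26 CPM to 0.2295 and 0.138 in LNCaP and rose from 0.135, 0.102 and 0.0346 to 6.05, 5.68 and 5.77 in LAPC4. The groups were apart in both lines (difference 10.17, SE 0.63, adjusted p = 5.98e-10). B2M, the light chain of every class I molecule, was singled out after its values were seen. It moved from 178 and 182 CPM to 108 and 116 in LNCaP and from 43.7, 47.3 and 51.04 to 121, 119.5 and 121 in LAPC4. The immunoproteasome subunit PSMB10 (difference 0.53, adjusted p = 0.13) was the member without a called difference. Reads can be shared between the similar heavy chain genes of this list, so the split between them is uncertain.

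Interferon-stimulated genes, which act in antiviral defence, moved in both directions. Of 20, 14 were higher in LAPC4 and 3 lower, with 7 opposite and 8 in LAPC4 alone (median difference 1.67, and 2.18 against shCon). IFI35, a cytosolic interferon-induced protein, went from 6.98 and 7.54 CPM to 4.45 and 4.13 in LNCaP and from 0.135, 0.171 and 0.104 to 20.1, 17.8 and 19.7 in LAPC4 (difference 7.85, SE 0.34). IFIT3, which binds viral RNA complexes, rose 36.3-fold in LAPC4 and had a log2 fold change of -0.76 in LNCaP, or -3.0 against shCon. IFI44L moved the other way. It was at 0 in both LNCaP Control libraries and at 5.69 and 5.87 CPM with OC2, at least 42.1-fold higher, and it fell from 4.71, 6.002 and 8.09 CPM to 2.85, 2.64 and 2.87 in LAPC4.

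Replication-dependent histones, whose messages are made in S phase, gave the highest share of opposite genes. Of 15 tested, 12 fell in LNCaP and rose in LAPC4, and no member had a lower difference (median difference 3.05). H2BC5 stood at 17.9 and 21.1 CPM in LNCaP Control and 3.12 and 2.85 with OC2, and at 3.803, 4.37 and 4.18 CPM in LAPC4 Vec and 22.6, 23.4 and 21.1 with OC2. The LNCaP side did not hold with shCon: the list's LNCaP median went from -2.06 to 0.0, 3 of the 12 genes were opposite with both references, and the median difference was 1.15. For H2BC5 the LNCaP log2 fold change was -2.71 against Control and -0.18 against shCon, and the difference 5.15 and 2.58.

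Cell-cycle lists moved less. Of 22 mitosis genes, 11 were higher in LAPC4 and none lower, 6 of them opposite (median difference 0.27, 0.23 against shCon). AURKA, a spindle kinase, went from 79.1 and 87.5 CPM to 69.1 and 68.2 in LNCaP and from 129.7, 129 and 127 to 189, 215 and 202 in LAPC4 (difference 0.93, SE 0.10). Against shCon its LNCaP log2 fold change was 0.21 and the difference 0.40. DNA replication genes were split, with 5 of 22 higher and 7 lower. RRM2, a subunit of ribonucleotide reductase, had a difference of 1.18, while MCM7, of the replicative helicase, had -0.83 (-1.35 against shCon).

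Glycolysis and response to low oxygen leaned higher in LAPC4. Of 23 genes, 13 were higher and 4 lower, with 7 that rose in LAPC4 and fell in LNCaP (median difference 0.76 with either reference). Of the 8 opposite genes of the list, 2 were opposite with both references, and the median was 0.32 with the window medians taken off. PGK1, which makes ATP in glycolysis, went from 654 and 610.5 CPM to 488 and 481 in LNCaP and from 221, 222 and 223 to 369, 367 and 369 in LAPC4. Its groups were apart in both lines, but against shCon its LNCaP log2 fold change was -0.08 and the difference 0.77 instead of 1.12. PFKP, a phosphofructokinase, kept its size, at 5.57 and 5.95. SLC16A3, the lactate exporter, fell from 159.5 and 149 CPM to 2.11 and 2.62 in LNCaP and rose from 5.59, 5.15 and 6.67 to 62.7, 52.6 and 60.2 in LAPC4. Against shCon it rose in LNCaP too (log2 fold change 1.44), which left a difference of 1.85 in place of 9.36.

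Fatty acid synthesis gave a split list. Of 17 genes, 5 were higher and 6 lower in LAPC4, and the 4 opposite genes all rose in LNCaP and fell in LAPC4. FASN, which builds palmitate, went from 2478 and 2175 CPM to 6385 and 6259 in LNCaP and from 4148, 4896 and 6353 to 2288, 1972 and 2337 in LAPC4. Libraries were apart in LNCaP and in LAPC4 (difference -2.66, SE 0.20, adjusted p = 1.86e-07, and -3.21 against shCon). ME1, which supplies NADPH for this pathway, rose in both lines, from 2 counts over the Vec libraries to 20.9, 21.03 and 20.9 CPM in LAPC4, a ratio of 921 (exact 95% Clopper-Pearson interval 254 to 7610, counting error only), and 2.0-fold in LNCaP. Sterol synthesis did not lean (6 higher and 4 lower of 20, median -0.12). Against shCon, 2 were higher and 10 lower, with a median of -0.59.

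The amino acid and ATF4 response, which supplies amino acids under stress, was lower in LAPC4 for 13 of 22 genes and higher for 5 (median difference -0.54, -0.57 against shCon). SLC3A2, the heavy subunit of amino acid transporters, rose from 156 and 142 CPM to 806 and 787 in LNCaP and stood at 232, 265 and 333 in LAPC4 Vec and 253, 229 and 236 with OC2. The LNCaP groups were far apart, while the LAPC4 groups overlapped (difference -2.63, SE 0.17). Its partner SLC7A5 turned with the reference: in LNCaP its log2 fold change was -1.29 against Control and 3.22 against shCon, so the difference went from 1.40 to -3.16. ATF5, a transcription factor of this response, was opposite, falling from 91.5 and 89.99 CPM to 47.8 and 47.5 in LNCaP and rising from 26.2, 24.9 and 27.9 to 66.2, 72.9 and 73.9 in LAPC4, but it had a LNCaP log2 fold change of 0.02 against shCon.

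**Figure D4:**
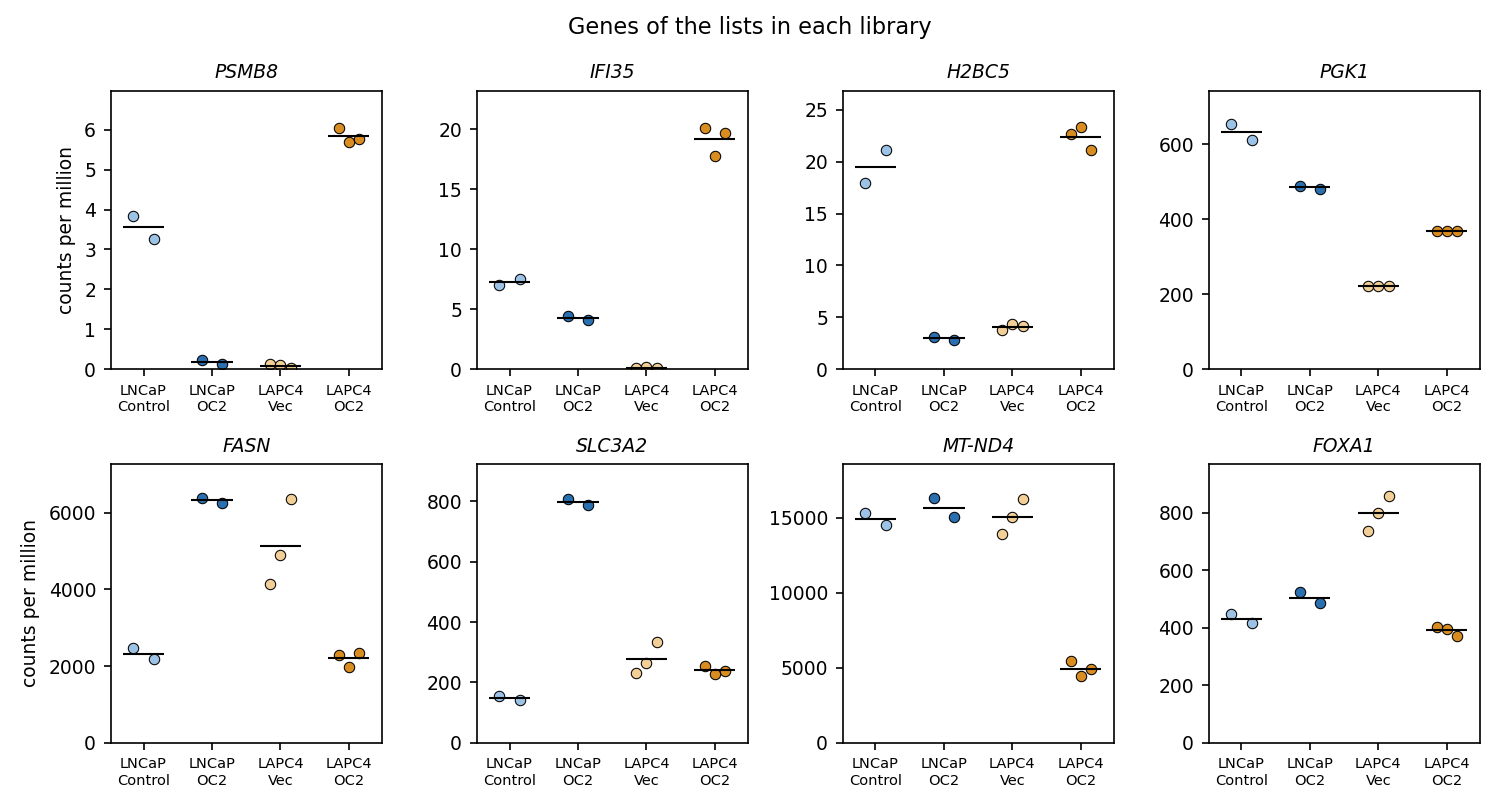
CPM in each library (points) with the group mean (line) for 8 genes of the lists, in LNCaP Control, LNCaP OC2, LAPC4 Vec and LAPC4 OC2. PSMB8, IFI35, H2BC5 and PGK1 fall in LNCaP and rise in LAPC4, FASN and FOXA1 do the reverse, and SLC3A2 and MT-ND4 change in 1 line.

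Mitochondrially encoded genes, the respiratory chain subunits made inside mitochondria, changed in LAPC4. All 13 fell there, beside 27% of all genes. Of the 13, 12 had a called difference, 10 of these without a call in LNCaP (median log2 fold change -0.04 in LNCaP and -1.32 in LAPC4). MT-ND4 stood at 15310 and 14510 CPM in LNCaP Control and 16300 and 15060 with OC2, and fell from 13900, 15030 and 16240 CPM in Vec to 5423, 4463 and 4940 with OC2 in LAPC4. Against shCon these genes rose in LNCaP (median 1.55), and the median difference went from -1.27 to -2.80. Nuclear-encoded subunits of complex I did not move with them, with 7 of 23 higher, 5 lower and a median difference of -0.03 (3 higher, 13 lower and -0.32 against shCon). Cytosolic ribosomal proteins had 2 of 35 higher and 9 lower, 7 of them rising in LNCaP alone (median -0.06).

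Luminal identity genes leaned lower in LAPC4, with 12 of 20 lower and 4 higher (median difference -0.48, -0.63 against shCon). In LAPC4 itself 16 of the 20 fell, beside 27% of all genes. Falls were seen in LNCaP too, where 9 fell and 4 rose, beside 24.1% and 26% of all genes. Against shCon 7 fell and 6 rose there. FOXA1, a pioneer factor that opens chromatin at androgen-responsive sites, stood at 448 and 415 CPM in LNCaP Control and 524 and 486 with OC2, and fell from 738, 799.8 and 857 CPM to 404, 397 and 371 in LAPC4. The difference was -1.26 (SE 0.11, adjusted p = 9.79e-07), but its opposite call rested on a small LNCaP rise (adjusted p = 0.0482) that was -0.21 against shCon. The chromosome 14 window of FOXA1 had medians of 0.27 in LNCaP and -0.26 in LAPC4. With the window's median taken off, a difference of -0.75 remained. HOXB13, a homeobox factor of the prostate, did not change by 1.5-fold or more in LNCaP, at 429.6 and 399 and then 419 and 399 CPM (95% interval of the log2 fold change -0.21 to 0.17). In LAPC4 it fell from 196, 208 and 236 to 129, 126 and 125 CPM (difference -0.73). ESRP2, which drives epithelial splicing, also fell in LAPC4 and was not called in LNCaP (difference -1.33, -0.81 against shCon). Of the 3 that rose in LAPC4, KRT8 was joined by GATA3 and the keratin KRT19. GATA3 rose 1.98-fold in LAPC4. In LNCaP it rose from near 0 (0.142 and 0.0441 CPM) to 36.8 and 38.2 CPM, a log2 fold change of 8.61 (95% interval 7.45 to 9.76). KRT19 rose in LAPC4 (422, 395 and 350.3 to 982, 773 and 812 CPM) and fell in LNCaP (12.3 and 13.5 to 4.27 and 4.41 CPM), but rose there against shCon (log2 fold change 2.31). Of 21 kallikreins and other androgen-induced genes, 13 fell and 3 rose in LNCaP, and 12 fell and 3 rose in LAPC4, beside 24.1% and 27% of all genes falling in these lines. The difference was higher in LAPC4 for 6 and lower for 9, with 5 opposite and 7 in the same direction (median -0.32, -0.13 against shCon). KLK2 fell 1.42-fold in LNCaP (log2 fold change 0.23 against shCon) and 6.21-fold in LAPC4, and the cation channel TRPM8 fell 12.1-fold and 1.38-fold.

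Basal and adhesion genes rose with OC2 in LAPC4, 14 of 17 and 17 of 20 tested, beside 28.6% of all genes. Many adhesion genes rose in LNCaP too, 11 of 20 with 2 falling, beside 26% and 24.1% of all genes. Against shCon 10 of them rose and 4 fell. Of the basal genes 4 rose and 3 fell in LNCaP, and 4 rose and 5 fell against shCon. Of 17 basal and stem genes, 8 were higher in LAPC4 and none lower (median difference 2.23), and of 20 integrin and matrix genes, 10 were higher and 2 lower (median 1.12). LAMB3, a chain of the laminin that anchors basal cells, went from 7.504, 7.09 and 3.97 CPM to 326, 285 and 307 in LAPC4 and from 0.522 and 0.882 to 1.61 and 1.05 in LNCaP (difference 4.72, SE 0.54). ALDH1A3, which makes retinoic acid, was opposite with both references, rising from 16.4, 15.4 and 12.6 to 42.5, 48.3 and 39.2 CPM in LAPC4 and falling from 40.9 and 42.6 to 4.45 and 5.92 in LNCaP. The integrin chain ITGA3 reached 164, 149 and 168 CPM from 3.13, 2.66 and 2.42 in LAPC4 and 8.86 and 9.82 from 5.602 and 3.97 in LNCaP. The basal keratins KRT6A and KRT17 rose 24.3-fold and 6.68-fold in LAPC4 and were at 0 in both LNCaP OC2 libraries and both shCon libraries, so no difference was called against shCon (adjusted p = 1.0 for each).

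Mesenchymal genes divided between the lines, with 7 of 19 higher in LAPC4 and 6 lower. The list's median of 1.57 turned to -0.64 when a gene had to pass the filter in each line, so no direction is drawn from it. MMP14, a membrane protease, went from 0.471, 0.443 and 0.207 CPM to 115, 109 and 119 in LAPC4 and from 0.0475 and 0.221 to 0.275 and 0.367 in LNCaP. The intermediate filament VIM rose in both lines, to 866, 743 and 830.0 CPM from 1.68, 0.887 and 1.69 in LAPC4 and to 88.4 and 86.6 from 7.41 and 8.96 in LNCaP. The repressor ZEB1 rose 99.9-fold in LAPC4 and was at or under 0.309 CPM in every LNCaP library of these groups. TWIST1, another factor of epithelial-mesenchymal transition, rose in LNCaP alone (0.142 and 0.132 to 40.02 and 40.3 CPM), while LAPC4 Vec held 8.35, 7.16 and 7.64 CPM and LAPC4 OC2 8.21, 7.69 and 7.33. Against shCon the TWIST1 rise in LNCaP was smaller (log2 fold change 1.88 in place of 8.14). N-cadherin, CDH2, rose in LNCaP from 1 count to 4.31 and 5.14 CPM, a ratio of 207 (exact 95% interval 36.7 to 8200), and fell from 60.5, 67.6 and 80.4 to 42.1, 39.9 and 38.2 CPM in LAPC4.

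Among receptor kinases and their ligands, 9 of 22 were higher in LAPC4 and 7 lower (median difference 0.59). The ligand EREG, which binds EGF receptors, rose from 0.0673, 0.0341 and 0.0346 CPM to 41.3, 47.7 and 44.5 in LAPC4 and was at 0 in both LNCaP OC2 libraries, with no call against shCon (adjusted p = 1.0). The receptor MET rose to 88.9, 98.8 and 92.8 CPM from 0.303, 0.375 and 0.311 in LAPC4 and to 6.79 and 7.66 from 2.18 and 2.91 in LNCaP (difference 6.63, 4.42 against shCon). ERBB4 was opposite, at 0 in both LNCaP Control libraries and at 3.49 and 3.58 CPM with OC2, at least 25.7-fold higher, and falling from 7.91, 9.89 and 11.4 to 6.11, 6.72 and 6.39 CPM in LAPC4. NF-kB targets and cytokines were higher in LAPC4 for 6 of 15 and lower for 3, and their median of 1.47 turned to -0.05 with the filter in each line. LIF, a cytokine of the interleukin-6 family, rose from 0.168, 0.239 and 0.173 CPM to 113, 115 and 119 in LAPC4 and fell from 5.22 and 4.99 to 1.74 and 2.34 in LNCaP (difference 10.51, SE 0.31, 10.17 against shCon). Of 18 p53 targets, 11 were higher in LAPC4 and 1 lower (median 0.70). CDKN1A, an inhibitor of cyclin-dependent kinases, rose 11.9-fold in LAPC4 and 1.3-fold in LNCaP. Of 18 glucocorticoid receptor and target genes, 5 were higher and 10 lower (median -0.60, -0.26 against shCon). NR3C1, the receptor itself, rose in both lines, from 5.89, 6.86 and 7.08 to 47.8, 51.4 and 47.8 CPM in LAPC4, and from 3 counts to 4.36 and 5.09 CPM in LNCaP, a ratio of 68.9 (exact 95% interval 23.3 to 337).

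Apart from the lists, 672 bounded rises and 564 bounded falls in LAPC4 were eligible for ranking. AGPS led the rises, from 0.135, 0.0341 and 0.0346 CPM in Vec to 60.6, 68.4 and 62.4 with OC2, while LNCaP held 26.9 and 29.2 CPM in Control and 31.4 and 34.3 with OC2 (difference 9.55, SE 0.52, adjusted p = 4.74e-12). MSN, which links the cell cortex to the membrane, rose from 0.673, 0.716 and 1.38 CPM to 246, 269 and 264, beside 60.5 and 60.9 and 52.1 and 53.6 in LNCaP. For both genes the gap between the LAPC4 groups was required by the ranking rule. Against shCon, AGPS was called as rising in LNCaP too (log2 fold change 0.54) and MSN as falling there (-0.63), with differences of 9.20 and 8.72. Others of this set were the zinc finger gene ZNF512, DISP2, the acyl-CoA thioesterase ACOT2, the glycosphingolipid enzyme B4GALT6 and the annexin ANXA6, with differences of 5.92 to 7.18. In LNCaP against shCon, ZNF512 (log2 fold change -0.26), DISP2 (1.02) and ACOT2 (-0.43) were called, while B4GALT6 and ANXA6 were not. Falls in LAPC4 alone were shallower. GPNMB, a membrane glycoprotein, fell from 15.6, 16.2 and 19.6 CPM to 3.23, 3.41 and 3.097 and stood at 10.2 and 9.84 and 9.96 and 11.6 in LNCaP (difference -2.50). ENPP1, which breaks down extracellular nucleotides, fell from 43.4, 45.9 and 58.96 CPM to 12.2, 14.2 and 13.1, beside 16.2 and 18.2 and 14.04 and 15.8 in LNCaP (difference -1.70). Against shCon ENPP1 fell in LNCaP too (log2 fold change -1.09), with a difference of -0.87. NOL4L, PRR36, MT-ND4, PILRB, SYTL1 and SEPTIN3 had differences of -2.0 to -1.58. Against shCon a LNCaP response was called for MT-ND4 (log2 fold change 1.83), PILRB (0.70), SYTL1 (0.64) and SEPTIN3 (-0.46), and not for NOL4L, PRR36 or GPNMB.

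Androgen glucuronidation genes rose in LNCaP. The UGT2B enzymes attach glucuronic acid to androgens for removal. All 9 tested genes rose in LNCaP against Control, beside 26% of all genes, and 6 of the 9 rose against shCon. The list has 10 genes. UGT2B4 passed the filter only through LNCaP OC2 (0.413 CPM in each library), so its rise is not independent of the filter. The difference was lower in LAPC4 for 7 and higher for none (median -5.45), and against shCon lower for 6 and higher for 1 (median -1.77). UGT2B11 rose from 1.14 and 1.94 CPM to 314 and 329.6 in LNCaP and fell from 89.7, 90.2 and 90.8 to 41.1, 44.5 and 39.5 in LAPC4 (difference -8.80, SE 0.20, adjusted p = 7.65e-13). UGT2B28 was opposite in the same way, from 0.285 and 0.265 to 72.7 and 74.5 CPM in LNCaP and from 8.72, 9.24 and 10.8 to 4.11, 3.91 and 4.08 in LAPC4 (difference -9.29, -5.95 against shCon). UGT2B15 rose from 2.71 and 2.65 to 98.3 and 107 CPM in LNCaP and stood at 6.39, 5.05 and 6.15 and then 5.17, 5.89 and 4.33 CPM in LAPC4, where its log2 fold change was -0.19 (95% interval -0.46 to 0.08). The difference was -5.45, and -1.77 against shCon. These genes are neighbours of similar sequence, and UGT2B15 and UGT2B17 are near-identical, so reads may be split between them. UGT2B17 rose in LNCaP against Control but had a log2 fold change of -0.29 against shCon, and it held few counts in LAPC4.

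Neuroendocrine markers leaned lower in LAPC4, with 7 of 13 lower and 3 higher (median -2.94). In LNCaP 10 of the 13 rose and 2 fell, beside 26% and 24.1% of all genes, and in LAPC4 5 rose and 5 fell, beside 28.6% and 27%. The list has 21 genes, and those too low for the filter were not tested. SCG3 and SNAP25 passed only through LNCaP OC2, and CHGB only through libraries with OC2. Their rises are therefore not independent of the filter. SCG3, a granule protein, went from 1 count in LNCaP Control to 22.5 and 25.6 CPM with OC2, a ratio of 1050 (exact 95% interval 189 to 41600), and was at or under 0.101 CPM in every LAPC4 library. SV2A, of synaptic vesicles, rose in both lines. It reached 13.3 and 12.9 CPM from 0 in LNCaP, at least 95.4-fold, and 17.5, 16.9 and 19.3 CPM from 0.135, 0.307 and 0.346 in LAPC4. Its difference ended against shCon (0.04, adjusted p = 1.0). The defining markers CHGA and INSM1 stayed at or under 0.230 CPM in every library of both lines. SRRM4, a splicing factor of neurons, stood at 105 and 115 CPM with OC2 in LNCaP and at 0 in LNCaP Control, at least 802-fold higher, and had no count in any LAPC4 library. SRRM4 also passed the filter only through LNCaP OC2, so its rise is not independent of the filter. Of 14 neural splicing and REST circuit genes, 1 was higher in LAPC4 and 4 lower. RCOR2, a corepressor partner of REST complexes, rose from 0.3798 and 0.176 CPM to 4.497 and 5.14 in LNCaP and fell from 13.7, 13.9 and 17.1 to 4.69, 4.41 and 3.68 in LAPC4 (difference -5.91, -2.92 against shCon).

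The ranked LNCaP-only genes came from 415 eligible rises and 249 eligible falls. NGFR, the low-affinity neurotrophin receptor, went from 0.0475 and 0.0441 CPM to 69.6 and 65.1 in LNCaP, a ratio of 1470 on 2 Control counts (exact 95% interval 407 to 12200). LAPC4 held 205, 200.2 and 192 CPM in Vec and 216, 171 and 178 with OC2, with overlapping groups. AGR2, a disulfide isomerase of secretory cells, rose from 0.855 and 1.103 CPM to 519.7 and 529.7 in LNCaP and stood at 11.2, 9.89 and 11.9 and 9.54, 10.7 and 10.3 in LAPC4 (difference -9.17, SE 0.21, -6.64 against shCon). TWIST1, the gap junction gene GJA1, the ETS factor ETV4, the neuronal membrane protein SLITRK6 and the growth cone protein BASP1 followed, with differences of -8.14 to -5.62. Among falls, ELOVL7, which lengthens fatty acids, went from 125 and 128 CPM to 21.2 and 25.1 in LNCaP and stood at 51.3, 55.9 and 64.9 and 56.8, 59.3 and 54.4 in LAPC4 (difference 2.43, 1.34 against shCon). PLK2, a stress-induced kinase, fell from 25.5 and 27.8 CPM to 5.97 and 4.91 in LNCaP and stood at 153, 150.3 and 139 and 149.8, 151 and 139 in LAPC4. The adhesion gene NCAM2, the glucose transporter SLC2A12, the acetyltransferase NAT1, DHFR2 and PBLD had differences of 1.66 to 2.37. MICU2, a regulator of mitochondrial calcium uptake, lies in the chromosome 13 window that fell in LNCaP: its difference was 1.81, 0.52 with the window's median taken off and 0.34 against shCon.

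**Figure D5:**
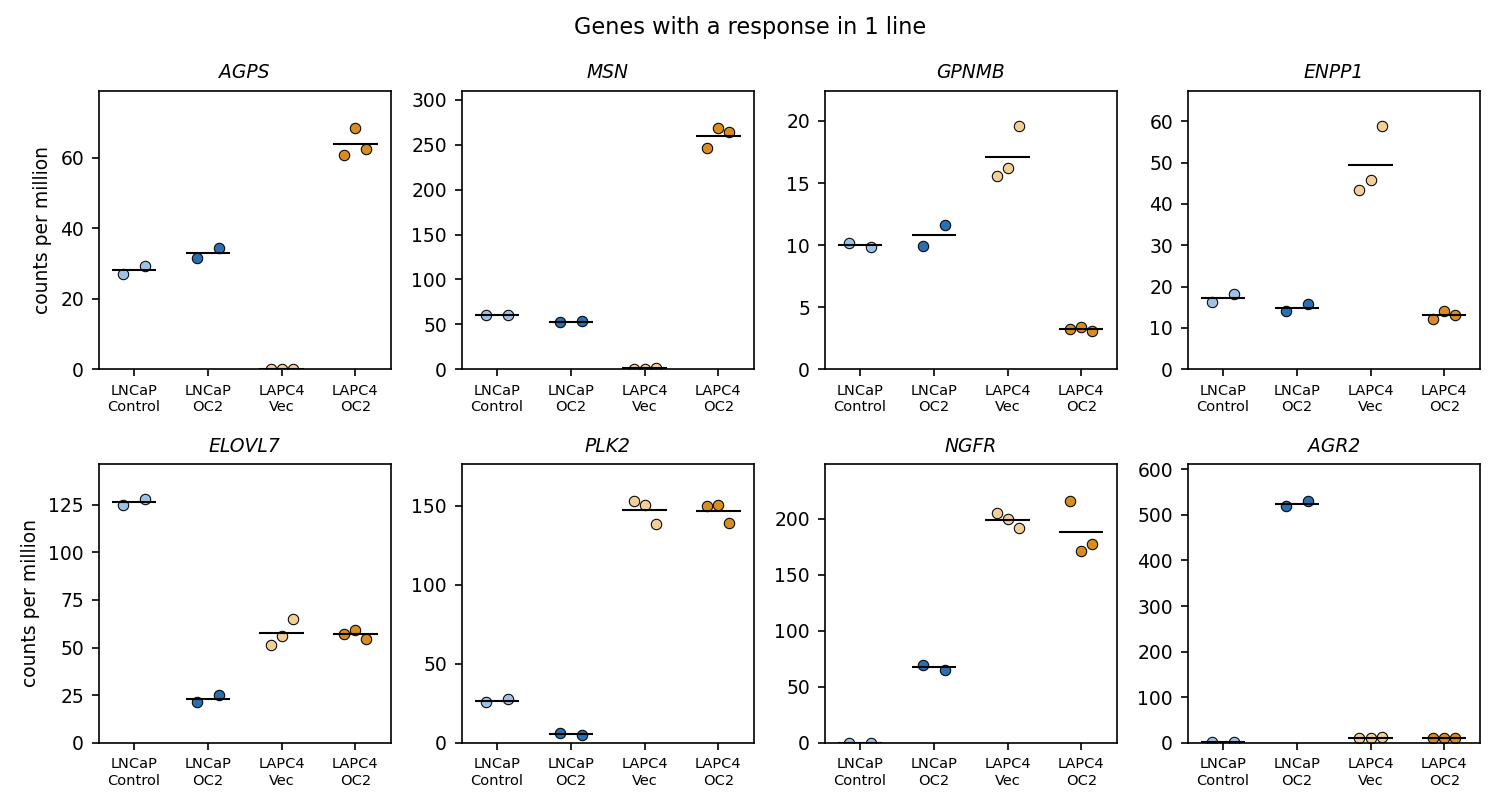
CPM in each library (points) with the group mean (line) for 8 genes with a response in 1 line, in LNCaP Control, LNCaP OC2, LAPC4 Vec and LAPC4 OC2. AGPS, MSN, GPNMB and ENPP1 change in LAPC4, and ELOVL7, PLK2, NGFR and AGR2 change in LNCaP.

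The remaining lists are given with their counts. Antioxidant genes of NRF2 had 3 of 14 higher and 6 lower (median -0.29, -0.04 against shCon). HMOX1, which degrades haem, rose 20.4-fold in LAPC4 and had a LNCaP interval of -0.29 to 0.17 around a log2 fold change of -0.06, while NQO1, a quinone reductase, rose 3.65-fold in LNCaP alone (difference -1.83, -0.21 against shCon). Polycomb and DNA methylation genes had 1 of 15 higher and 6 lower (median -0.10), with PHF19 rising 9.72-fold in LAPC4 and the methyltransferase DNMT3B rising from 7.31 and 7.32 to 15.7 and 15.3 CPM in LNCaP and falling from 33.5, 34.5 and 33.97 to 22.8, 21.9 and 22.1 in LAPC4. Endoplasmic reticulum chaperones had 7 of 19 higher and 2 lower (median 0.14), but none higher and 14 lower against shCon (median -0.75). Cancer-testis antigens had 1 of 14 higher and 5 lower, with a median of -0.19 that became -2.01 against shCon, and MAGEA4 was at least 483-fold higher with OC2 in LNCaP and at or under 0.449 CPM in every LAPC4 library. Steroid synthesis and conversion (1 of 12 higher, 5 lower) had a median of -0.57 that turned to 0.26 against shCon. The Wnt pathway had 4 of 18 higher and 4 lower, with a median of -0.29. Metallothioneins had 2 of 6 higher and 1 lower (median 1.23, 0.47 against shCon). Hepatic and intestinal genes had 3 of 9 higher and 1 lower (median 1.78), and 2 higher and 2 lower against shCon (median 1.38). Stromal, endothelial and blood cell markers had 3 of 11 higher and 1 lower (median 0.20, -0.10 against shCon).

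Of the 48 genes of the ranked sets, 25 share an exon with another annotated gene (52.1%, beside 49.1% of all genes tested), COL4A2, SPART, ABCA12, AGPS, ENPP1 and NGFR among them. Since no strand setting is given for the counting, reads of such pairs cannot be told apart.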

How the data were processed

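RNA-seq libraries of LNCaP and LAPC4 cells were grouped as the labels name them. The submitters' processing notes name FastQC 0.9.0, Bowtie2 and the build hg38. The counter, its strand setting and the annotation were not given in the sources used here. For LAPC4 the authors deposited whole-number counts per Ensembl gene. For LNCaP the authors deposited estimated counts, rounded here to whole numbers. Since one table is whole and the other is not, they were not counted alike: levels are compared within a table only, except for 1 description in the closing section, and the lines are compared by their fold changes. The 9 columns of the drug experiment and 2 shOC2 columns were not used.

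The 57608 identifiers in both tables (version cut) entered 1 joint model of 4 group means in edgeR 4.0.16 (R 4.3.3), with TMM over 10 libraries, filterByExpr, a quasi-likelihood F-test with 6 residual degrees of freedom and Benjamini-Hochberg adjustment over 19633 genes. CPM are on TMM-scaled library sizes, and standard errors come from the fitted weights. Symbols are from GENCODE 29 and the HGNC names given with the data, promoters from RefSeq. Folds from a group at 0 use a floor of 3 counts per library, and groups with 1 to 3 counts have an exact 95% Clopper-Pearson interval; both cover counting error only.

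Members, gene lists and tests were chosen with earlier results of these data known. Lists were described by counts and medians, with no set test. Ranked genes were protein-coding, at 5 CPM or more, with groups apart in each responding line, and kept the difference's sign and call with shCon. Opposite and LNCaP-only genes also kept those of the LNCaP response. Each list contributed at most 4 called members, by size of difference, and 2 uncalled ones, by level. Marker genes VIM, ZEB1, KRT8, CHGA and INSM1 were named as cell type markers. A few genes that the rule names are not reported here. The chromosome windows were added after seeing the data.

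The procedure was tested on simulated counts of 19098 genes with 200 changed for the interaction: 77% of 2-fold and 99% of 4-fold differences were recovered and 13 unchanged genes called. Alternatives were shCon as reference, RLE, upper-quartile and within-table scaling, other filters, DESeq2 1.42.0, limma-voom (limma 3.58.1), separate fits per line, a replicate block, a stricter threshold and leaving out each library.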

Additional observations from a re-analysis of the deposited data

Results flagged for a closer look

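The responses of the lines were tested against each other, and that test was passed by 9713 genes and by each gene below. Values are the log2 fold change with OC2 in LAPC4 minus that in LNCaP.

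Of the genes named first, the values were 2.34 for ONECUT2, -1.26 for FOXA1, -0.73 for HOXB13 and -3.12 for NR3C1. For genes that rose in LAPC4 and fell in LNCaP they were 8.81 for COL4A2, 9.40 for SPART, 8.24 for LGALS3BP, 7.32 for NAV3, 4.51 for CEP41, 6.44 for VPS35L, 4.47 for ABAT and 5.68 for DGLUCY. For genes that fell in LAPC4 and rose in LNCaP they were -5.82 for NEURL1, -5.10 for ABCA12, -7.44 for PLA2G3, -5.40 for SLC7A8, -13.32 for SSX2, -6.18 for GNB3, -6.15 for SP8 and -13.25 for DOK6. LAPC4-only rises gave 9.55 for AGPS, 8.33 for MSN, 7.18 for ZNF512, 6.71 for DISP2, 6.49 for ACOT2, 6.21 for B4GALT6 and 5.92 for ANXA6. LAPC4-only falls gave -2.50 for GPNMB, -2.0 for NOL4L, -1.97 for PRR36, -1.70 for ENPP1, -1.68 for MT-ND4, -1.67 for PILRB, -1.63 for SYTL1 and -1.58 for SEPTIN3. LNCaP-only falls gave 2.43 for ELOVL7, 2.37 for NCAM2, 2.28 for PLK2, 2.03 for SLC2A12, 1.88 for NAT1, 1.81 for MICU2, 1.79 for DHFR2 and 1.66 for PBLD. LNCaP-only rises gave -10.46 for NGFR, -9.17 for AGR2, -8.14 for TWIST1, -7.35 for GJA1, -6.60 for ETV4, -6.21 for SLITRK6, -5.62 for BASP1 and -5.45 for UGT2B15.

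For SSX2, DOK6, NR3C1, NGFR and GJA1 the LNCaP Control libraries together held 3 counts or fewer, so their values depend on the prior count of the fit.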

How the results depend on the processing

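Every scaling, filter, test and left-out library kept the count of called differences within 1.5 times of 9713, and those that were still called kept their sign: 93.5% to 99.9% under 10 alternatives and 85.1% to 98.2% with 1 library left out. With shCon as the LNCaP reference 65.5% kept sign and call. Leaving out 1 library gave 8446 to 10777 differences (10777 without Vec replicate 3), 4321 to 5556 higher and 4090 to 5221 lower in LAPC4. It gave 7911 to 8413 genes responding in LNCaP and 9525 to 11753 in LAPC4. The opposite classes ran from 891 to 1516 (rising in LAPC4) and from 1059 to 1615 (falling), LAPC4-only genes from 2620 to 3016, LNCaP-only genes from 2278 to 2963 and same-direction genes from 937 to 1730. A LNCaP group left with 1 library was assumed to vary like the others. At an adjusted p of 0.01 the opposite classes held 730 and 806 genes and the same-direction class 660, by construction fewer.

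Among lists whose median exceeded the spread between replicates, medians turned sign when genes had to pass the filter in each line for mesenchymal genes (-0.64), neural splicing and REST circuit (0.05), NF-kB and inflammatory cytokines (-0.05) and cancer-testis antigens (0.04), where fewer genes were tested, and against shCon for steroid synthesis (0.26; the cause was not tested). With the window medians taken off, no named gene turned, but the small medians of sterol synthesis (-0.12) and DNA replication (0.05) became 0.17 and -0.20, and those of metallothioneins, kallikreins, NRF2 genes and the Wnt pathway became 0.72, -0.18, -0.14 and -0.46. With each line fitted on its own, SSX2 (-13.03) and DOK6 (-12.96) kept their size but got no p-value and so no call. Both were at 0 in LNCaP Control, where that setting has no finite standard error.

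Replicate numbers did not pair the libraries: same-numbered deviations correlated at 0.0479 in LNCaP and at 0.00197, -0.0154 and -0.0572 in LAPC4, and not every LAPC4 library correlated best with its own number. With the replicate block within line, 9428 differences were called, 9240 of them among the 9713 with the same sign (95.1%). Depth limits genes near 0 in 1 line, where a difference rests on a few counts.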

Other observations

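Among genes of the opposite class, the controls mostly differed between the lines in the direction opposite to the response. Levels from the tables were set side by side for this description, as the log2 ratio of mean CPM with 0.5 CPM added, and the tables were counted differently. Of the 1202 genes that rose in LAPC4 and fell in LNCaP, 83.4% were lower in LAPC4 than in LNCaP among the controls and 34.8% with OC2 (median log2 ratio -0.98 and 0.37). Of the 1333 that did the reverse, 12.8% were lower in LAPC4 among the controls and 56.7% with OC2 (median 1.18 and -0.16). Over all 19633 genes these shares were 47.7% and 46.9%. The ratio was nearer to 0 with OC2 for 61.6% and 70.9% of these 2 sets and for 55.9% of all genes. The response difference is by its arithmetic the change of this ratio, so the pattern is a description and not independent of the classes.

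By chromosome, 41.8% of the 335 tested genes on chromosome 13 had a higher difference in LAPC4 and 14.9% a lower one, and on chromosome 15 the shares were 39.0% and 12.2% of 662. On chromosome 1 they were 16.7% and 35.4% of 1895. The chromosome 15 genes had a median of -0.38 in LNCaP and -0.02 in LAPC4. On chromosome 3, 20.3% of 1041 genes were opposite, the highest share of any chromosome, beside 12.9% of all genes. This share uses Control as the LNCaP reference. The chromosome 3 windows given above had LNCaP medians of -0.05 and -0.06 against shCon.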
